A study of Mus musculus with 12 samples.

Results

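The response of wild-type brown fat to a β3-adrenergic agonist was examined in 6 of the 12 libraries of the series. These are the 3 libraries labelled WT with CL316,243, called WT_CL here, and the 3 labelled WT with PBS, called WT_PBS. CL316,243 is a selective agonist of the β3-adrenergic receptor. It was injected into the peritoneum at 1 mg/kg every day for 10 days at Zeitgeber time 4, and the controls received the same volume of PBS. Both groups were male mice of the strain C57BL/6J Bom, 12 weeks old, fed chow and housed at 30 °C. All WT mice carried floxed alleles of the genes for ERRα and ERRγ and no Cre transgene, so neither receptor was deleted. The other 6 libraries, ERRKO_PBS and ERRKO_CL, came from floxed littermates with Cre under the adiponectin promoter, which deletes both receptors in adipocytes, and they had the same injections. Tissue was collected 24 hours after the last dose, so the values describe the state a day after the last of repeated doses. Whether each library is its own animal is not stated in the labels, so part of the variation behind a p-value may be technical. That variation was estimated within the 4 groups of all 12 libraries in 1 fit, so it includes the spread of the ERRKO libraries.

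Brown fat makes heat by burning fuel in mitochondria whose inner membrane is made leaky to protons by the uncoupling protein UCP1. Noradrenaline from sympathetic nerves acts on β3 receptors, which through the stimulatory G protein raise cAMP and activate protein kinase A. The kinase starts the breakdown of stored triglyceride, and the fatty acids set free both activate UCP1 and feed oxidation. Repeated stimulation is known to raise thermogenic genes, to enlarge the mitochondrial compartment and to raise fat synthesis and fat oxidation in the same tissue. Mice housed near thermoneutrality have low sympathetic drive to the depot.

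The promoters of 5 genes are shown because they belong to the genes on which the results turn: Ucp1, the rising genes Fam131c and Gk, and the falling genes Nnat and Nr4a1. Each is the 250 bases before the annotated start in RefSeq, build GRCm38.p6, written 5′ to 3′ on the strand of the gene, with capitals for any match to one of 5 motifs on either strand. The windows are chr8:83290098-83290347, plus strand for Ucp1, chr4:141367942-141368191, plus strand for Fam131c, chrX:85776820-85777069, minus strand for Gk, chr2:157559828-157560077, plus strand for Nnat and chr15:101266596-101266845, plus strand for Nr4a1.
Ucp1: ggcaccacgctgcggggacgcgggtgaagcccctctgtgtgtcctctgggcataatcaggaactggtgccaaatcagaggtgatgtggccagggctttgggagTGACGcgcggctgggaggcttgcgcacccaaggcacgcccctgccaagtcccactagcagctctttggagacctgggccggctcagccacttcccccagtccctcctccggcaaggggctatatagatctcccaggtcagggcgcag
Fam131c: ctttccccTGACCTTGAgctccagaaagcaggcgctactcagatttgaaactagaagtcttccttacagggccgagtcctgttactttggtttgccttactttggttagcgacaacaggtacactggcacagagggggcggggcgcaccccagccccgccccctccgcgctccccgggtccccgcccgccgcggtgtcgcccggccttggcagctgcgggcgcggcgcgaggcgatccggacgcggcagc
Gk: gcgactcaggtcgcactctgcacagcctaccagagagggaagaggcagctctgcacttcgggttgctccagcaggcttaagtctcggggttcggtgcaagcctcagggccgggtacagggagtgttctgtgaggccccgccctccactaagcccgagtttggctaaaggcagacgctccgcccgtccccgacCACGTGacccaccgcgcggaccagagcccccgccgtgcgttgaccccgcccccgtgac
Nnat: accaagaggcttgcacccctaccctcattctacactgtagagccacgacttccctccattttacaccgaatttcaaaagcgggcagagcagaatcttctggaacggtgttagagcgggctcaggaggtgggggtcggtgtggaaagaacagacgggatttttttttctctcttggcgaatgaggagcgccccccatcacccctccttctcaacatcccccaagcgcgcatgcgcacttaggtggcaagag
Nr4a1: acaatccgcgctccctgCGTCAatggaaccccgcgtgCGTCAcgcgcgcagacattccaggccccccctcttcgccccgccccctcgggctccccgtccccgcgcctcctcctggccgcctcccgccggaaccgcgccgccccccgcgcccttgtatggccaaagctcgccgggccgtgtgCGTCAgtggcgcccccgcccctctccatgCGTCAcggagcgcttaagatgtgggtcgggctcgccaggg
The motifs were the full cAMP response element TGACGTCA, its core TGACG, which is contained in the full element, the extended ERR site TCAAGGTCA, the E-box CACGTG and the TATA box TATAAA. The capitals mark 1 cAMP core element in Ucp1, 1 extended ERR site in Fam131c, 1 E-box in Gk and 4 cAMP core elements in Nr4a1, and Nnat has no match to the 5 motifs. Such windows were found for 9727 tested genes, and counting a window once where gene names share it leaves 9720. Of these 2.72% hold the full cAMP element, against 3.06% of 1800 windows of genes called higher and 1.97% of 1219 of genes called lower. The core element is in 27.6% of all, 28.5% of the higher and 24.9% of the lower genes. The extended ERR site is in 0.226%, 0.444% and 0.246%, the E-box in 8.65%, 8.67% and 7.05%, and the TATA box in 6.42%, 5.67% and 7.55%. Over all 27025 windows of the RefSeq table the shares are 1.62%, 17.9%, 0.366%, 6.05% and 13%, in the same order of motifs. These matches are letters in a window and not binding sites.

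The libraries held 8478310 to 9727167 recovered reads in WT_PBS and 8979123 to 9559239 in WT_CL. Levels below are RPKM, reads scaled to gene length and library total, after dividing each library by its median ratio to the others. On the RPKM as deposited, the typical gene was lower with CL316,243 (median log2 change -0.259). The scaling sets it to 0.012, and changes are therefore relative to the typical gene. Most defining markers of brown fat, some of them named for this check alone, were high in all 6 libraries: Cidea at 1082, 956 and 1480.0 in WT_PBS and 1759.7, 1632 and 1645 in WT_CL, Cox7a1 at 476, 461 and 741 and 1369, 1092 and 1379, and the fat cell marker Plin1 at 375, 327 and 398 and 383, 471 and 385. The brown fat transcription factor Zic1 was low but detected, at 2.10, 1.88 and 2.12 and 3.18, 2.48 and 2.67. Elovl3, another marker of the check, was near 0 in WT_PBS, at 0, 0.156 and 0.0378, and at 25.6, 41.5 and 15.4 in WT_CL. WT_PBS replicate 3 was the highest of its group for 41.9% of genes, among them all 37 tested genes of complex I and 75 of 76 of the cytosolic ribosome. Skeletal muscle markers varied within both groups, with a summed level over 29 genes of 436, 50.3 and 77.3 in WT_PBS and 176, 80.0 and 571 in WT_CL, and none of them was called. Genes annotated on the same bases as others, without a stated use of strand, can share reads, and more than 10% of exon bases are shared for Mlx, Gpd1, Bscl2, Uqcrc2, Hmgcs1, Csf1r, Psmb8 and Cebpb among the genes below, besides those where the share is given. Summed blood cell markers were 949, 1056 and 1057 in WT_PBS and 519, 229 and 707 in WT_CL.

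The question of the comparison is which genes respond to the agonist when both ERR genes are intact. The response was broad. Of 12249 genes tested, 3737 were called at an adjusted p under 0.05 (limma, Benjamini-Hochberg), which is 30.5%. Of these, 2199 were higher with CL316,243 (18.0% of all tested) and 1538 were lower (12.6%). Every count of list members below is to be read against these shares. Most changes were small: 319 genes rose and 253 fell at least 2-fold, and 41 rose and 28 fell at least 4-fold on the log2 scale with 0.5 added. The values of the 2 groups did not overlap for 43.0% of genes. The typical gene varied little within a group, with a median coefficient of variation of 13.8% in WT_PBS and 9.5% in WT_CL. On the deposited scale 882 genes were called higher and 4671 lower. All 882 were also called higher after scaling, all 1538 lower genes were lower on both scales, and 0 genes were called in opposite directions.

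**Figure D1:**
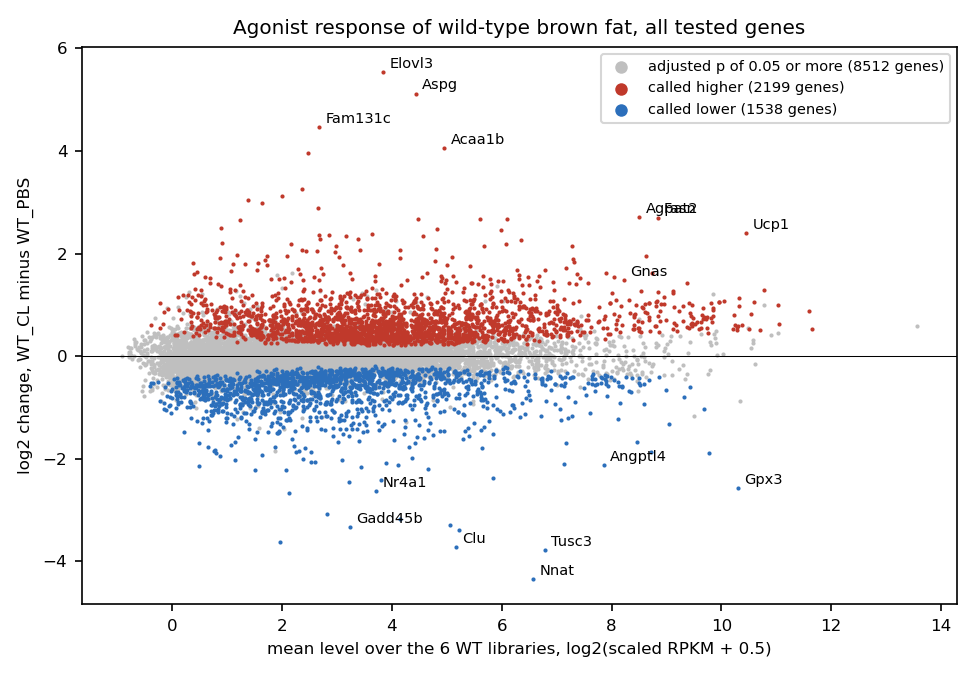
Each point is 1 of 12249 tested genes, with its mean level over the 6 WT libraries on the horizontal axis (log2 of scaled RPKM plus 0.5) and its log2 change with CL316,243 on the vertical axis, in red where called higher (2199) and blue where called lower (1538). The largest rise is Elovl3 at 5.53 and the largest fall Nnat at -4.34, while the abundant Ucp1 and Fasn rose by 2.41 and 2.70.

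The RNA of the uncoupling protein rose. Ucp1 (chromosome 8, 83290352 to 83298452, plus strand, GRCm38) was at 484, 315 and 538 RPKM in the WT_PBS libraries and 2963, 1836 and 2250.4 in the WT_CL libraries. The lowest agonist library lay above the highest control library, and the means of 446 ± 116 and 2349.7 ± 569.8 (SD, n = 3) differ 5.27-fold (2.41 ± 0.31 log2 ± SE, limma adjusted p = 1.8e-04). Dio2, the deiodinase that makes active thyroid hormone inside the brown adipocyte, rose from 1.75, 0.955 and 3.34 to 12.7, 6.46 and 9.08 (2.04 ± 0.36, adjusted p = 0.0014), without overlap. Letmd1, a mitochondrial inner membrane protein needed for brown fat thermogenesis, rose with little spread, at 82.1, 77.6 and 85.3 and 262, 240.0 and 246 (1.60 ± 0.08, adjusted p = 2.7e-07).
Elovl3, an elongase of very long chain fatty acids and a classical cold-induced gene of brown fat, had the largest rise of all (chromosome 19, 46131897 to 46135694, plus strand). It was at 0, 0.156 and 0.0378 in WT_PBS, near the detection limit, and at 25.6, 41.5 and 15.4 in WT_CL (5.53 ± 0.27, adjusted p = 2.8e-07). The proton channel gene Otop1 rose from 22.9 ± 4.11 to 54.8 ± 4.52 (1.25 ± 0.14, adjusted p = 7.5e-05).
Across the whole list of thermogenic and brown adipocyte genes, 14 of 31 tested members rose and 1 fell (median 0.57, or 11 and 2 on the deposited scale, median 0.26), against 18.0% and 12.6% of all genes. Without WT_PBS replicate 2 the number that rose was 9.
Several regulators of the brown fat program were not called. Prdm16, a transcriptional regulator of brown fat identity, was at 4.04, 4.12 and 3.46 and 4.53, 3.82 and 3.87 (0.06 ± 0.25, adjusted p = 0.88). Ppargc1a, the coactivator PGC-1α, was at 5.47, 4.60 and 4.61 and 9.76, 6.14 and 8.24, with no overlap but a change of 0.65 ± 0.31 that missed the threshold (adjusted p = 0.13). Its SE also carries the spread of 6.45, 3.62 and 10.8 in ERRKO_PBS and 13.4, 8.42 and 8.18 in ERRKO_CL. Ppargc1a passed as higher in some alternatives of the processing. Cidea, a lipid droplet protein abundant in brown fat, likewise showed no overlap and did not pass (0.54 ± 0.23, adjusted p = 0.1). It passed without WT_PBS replicate 3 (adjusted p = 0.037) and on the log2 scale changed by 0.72 there. Esrra, which encodes ERRα, rose from 46.9, 41.6 and 42.3 to 83.1, 75.4 and 78.9 (0.85 ± 0.17, adjusted p = 0.0025). Esrrg, which encodes ERRγ, was at 8.26, 7.96 and 4.40 and 8.12, 6.99 and 5.61, and the groups overlapped (0.04 ± 0.25, adjusted p = 0.93). The hormone gene Fgf21 was below the filter on low values, at 0, 0 and 0.0751 in WT_PBS and 0, 0.176 and 0 in WT_CL.

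**Figure D2:**
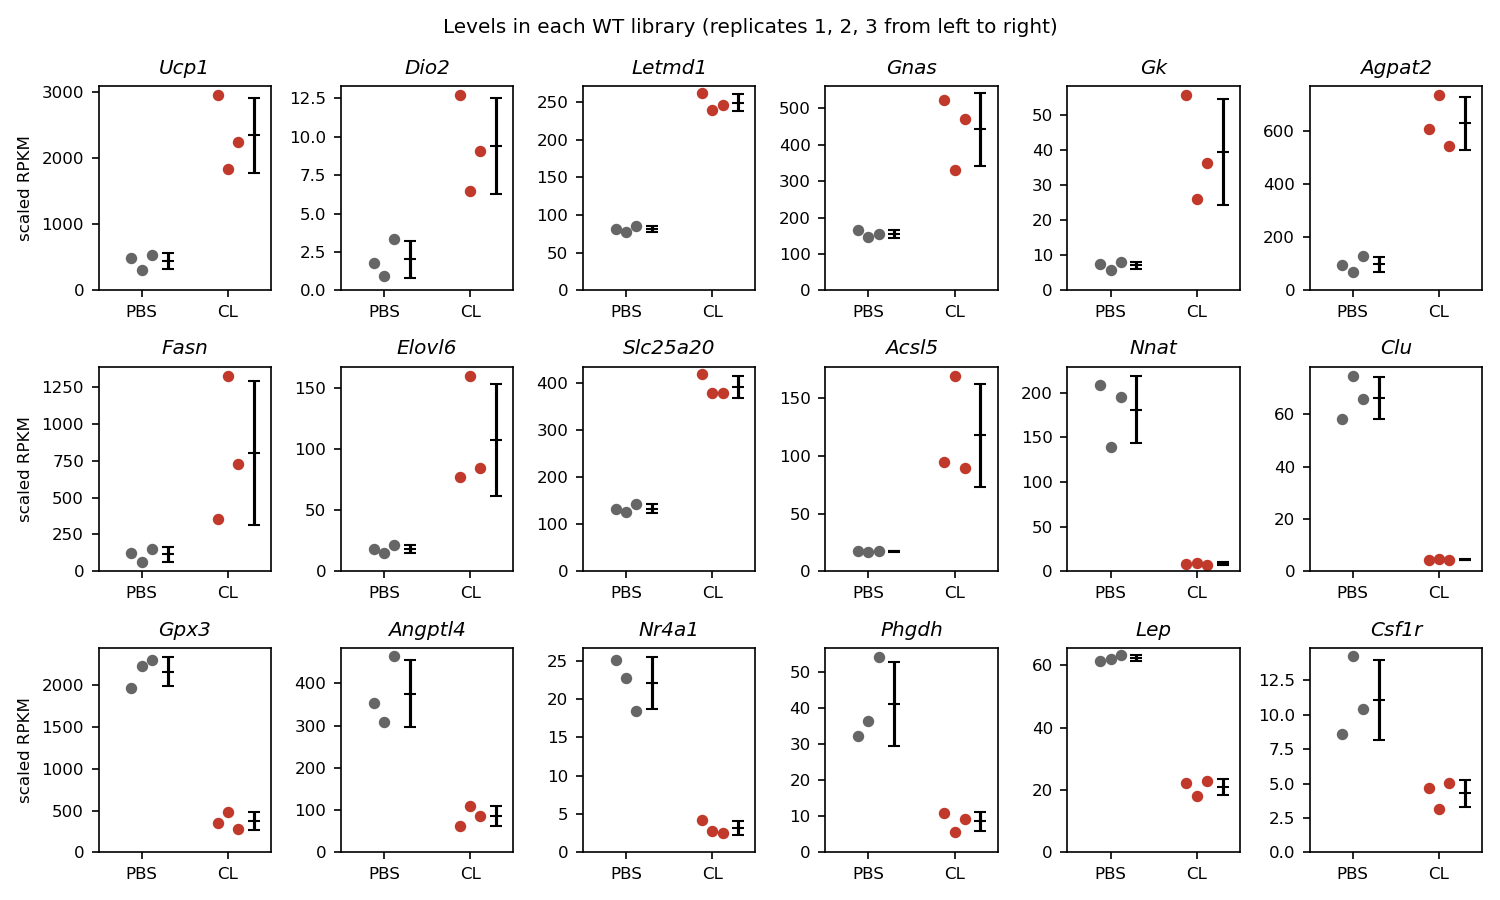
Scaled RPKM of 18 genes in each WT library, with grey points for WT_PBS and red points for WT_CL in the order of their replicate numbers, and the mean ± SD of each group (n = 3) to the right of its points; every vertical axis starts at 0. In all 18 genes the 3 agonist libraries lie on 1 side of the 3 control libraries. These genes were chosen with the results known, and the groups did not overlap for 43.0% of all tested genes.

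In the pathway from the receptor to cAMP some genes rose and others fell, with shares near those of all genes. The receptors come first. Adrb3, the target of the agonist, was at 19.5, 18.7 and 25.0 in WT_PBS and 26.1, 54.7 and 31.0 in WT_CL. All WT_CL values were higher, the second by far the highest, and the change of 0.75 ± 0.26 did not pass (adjusted p = 0.051). It passed without WT_PBS replicate 3 (adjusted p = 0.044) or WT_CL replicate 1 (0.027) and with edgeR on recovered reads (0.043). Adrb3 shares 24.9% of its exon bases with other genes, and its level is uncertain to that extent. Adrb1 did not differ detectably, at 7.81, 8.16 and 6.79 and 7.74, 7.98 and 6.94 (0.00 ± 0.14, adjusted p = 0.98).
Gnas, which encodes the stimulatory G protein subunit and lies in a complex imprinted locus, rose from 166, 146 and 154 to 524, 332 and 471 (1.48 ± 0.14, adjusted p = 2.7e-05). Other genes cover 22.0% of its exon bases. Prkar2b, the regulatory subunit of protein kinase A that prevails in fat cells, rose from 328 ± 40.7 to 664 ± 9.11 (1.02 ± 0.11, adjusted p = 7.0e-05). The phosphodiesterases Pde4d and Pde8a, which degrade cAMP, rose by 1.14 ± 0.17 and 0.60 ± 0.11, the latter not on the deposited scale (adjusted p = 0.068).
Genes of inhibitors around the kinase moved in opposite directions. Pkia, an inhibitor peptide of protein kinase A, fell from 19.8, 13.3 and 12.1 to 2.28, 1.40 and 3.64 (-2.44 ± 0.53, adjusted p = 0.0048). Ppp1r1a, a phosphatase inhibitor that protein kinase A activates, rose from 4.87, 4.57 and 7.19 to 32.6, 45.2 and 35.6 (2.68 ± 0.17, adjusted p = 1.8e-06). Rgs2, a brake on G protein signalling, fell from 125, 89.0 and 119 to 44.3, 42.1 and 58.8 (-1.19 ± 0.26, adjusted p = 0.0049). In the list of adrenergic receptors and cAMP signalling as a whole, 7 of 34 members rose and 5 fell (median 0.09, or 5 and 12 on the deposited scale, median -0.20), shares near those of all genes. The number that fell was 3 without WT_PBS replicate 2, WT_CL replicate 1 or WT_CL replicate 2.

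Immediate early genes, which cAMP induces soon after a stimulus, were called lower more often than higher at this time. Nr4a1, an orphan nuclear receptor and a classical target of cAMP whose promoter is printed above, was at 25.1, 22.8 and 18.5 in WT_PBS and 4.27, 2.82 and 2.49 in WT_CL. Every agonist library lay far below the controls (-2.64 ± 0.31, adjusted p = 1.1e-04). Jun, a subunit of the AP-1 transcription factor, fell (-1.46 ± 0.25, adjusted p = 0.0011). Its partner Fos fell from 1.06, 1.88 and 0.781 to 0.505, 0.357 and 0.242 (-0.97 ± 0.21, adjusted p = 0.0043). Nr4a2, a close relative of Nr4a1, moved the other way, from 1.68, 1.68 and 1.57 to 2.36, 3.20 and 3.73 (0.73 ± 0.16, adjusted p = 0.005). Of 13 tested members, 2 rose and 5 fell (median -0.24, or 1 and 6 on the deposited scale, median -0.54). Without WT_PBS replicate 2, 3 fell. Gadd45b, a stress-induced gene outside this list, was among the largest falls, from 14.4, 17.8 and 17.6 to 1.35, 0.919 and 1.33 (-3.33 ± 0.29, adjusted p = 1.6e-05).

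Genes that build fatty acids rose together with genes that burn them. Fasn, fatty acid synthase, was at 128, 61.5 and 155 in WT_PBS and 353, 1321 and 727 in WT_CL. The groups did not overlap, but the WT_CL libraries ranged widely (2.70 ± 0.50, adjusted p = 0.0019). Elovl6, which lengthens palmitate, rose from 18.8, 14.8 and 21.7 to 77.5, 160.2 and 85.1 (2.45 ± 0.34, adjusted p = 3.3e-04). In both genes the second WT_CL library was the highest. Pgd of the pentose phosphate pathway, a source of NADPH, rose by 1.57 ± 0.22, and Idh1, another NADPH source, by 0.86 ± 0.10.
Among transcription factor genes of this pathway some rose and some were not called. Srebf1, which encodes SREBP-1, rose from 34.7, 35.3 and 36.7 to 67.3, 79.5 and 58.8 (0.93 ± 0.22, adjusted p = 0.0081). Mlxipl, which encodes the glucose sensor ChREBP, was at 49.6, 49.7 and 39.3 and 32.1, 52.8 and 43.1 with overlap (-0.13 ± 0.16, adjusted p = 0.57), while its partner Mlx rose by 0.93 ± 0.15. Nr1h3, the liver X receptor α gene, rose by 0.53 ± 0.09, not on the deposited scale (adjusted p = 0.067). Insig1, which holds SREBP in the endoplasmic reticulum, rose by 1.47 ± 0.20. In all, 15 of 27 lipogenesis genes rose and 2 fell (median 0.96, or 11 and 4 on the deposited scale, median 0.63). The pair that fell, named after its values were seen, is Fads1 (-0.77 ± 0.16) and Fads2 (-0.43 ± 0.15), desaturases that make polyunsaturated fatty acids from dietary precursors. The call for Fads2 (adjusted p = 0.043) was lost when any 1 WT library other than WT_CL replicate 3 was left out (adjusted p from 0.058 to 0.16).

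Genes for the supply of glycerol backbone and the assembly of triglyceride rose as well. Gk, glycerol kinase (chromosome X, 85701937 to 85776819, minus strand), which lets a fat cell reuse the glycerol it releases, was at 7.49, 5.84 and 7.96 and 55.7, 26.2 and 36.3 RPKM. Every agonist library was several times higher than the controls (2.34 ± 0.23, adjusted p = 2.9e-05). Agpat2, an acyltransferase whose loss causes lipodystrophy, rose from 95.2, 70.8 and 129 to 607, 736 and 542 (2.70 ± 0.31, adjusted p = 9.6e-05). Gpd1, which makes glycerol 3-phosphate from glycolysis, rose by 1.30 ± 0.16, its mitochondrial partner Gpd2 by 1.12 ± 0.16, and Dgat1, which adds the last acyl chain, by 1.12 ± 0.14. Of 18 genes of this group 13 rose and 1 fell (median 0.74, or 8 and 1 on the deposited scale, median 0.42).
Genes of lipid droplet proteins divided. Cidec and the seipin gene Bscl2 rose by 0.83 ± 0.14 and 1.02 ± 0.14, and Plin5, which tethers droplets to mitochondria, rose from 53.7 ± 8.30 to 84.8 ± 2.08 (0.67 ± 0.14, adjusted p = 0.0048), not on the deposited scale (adjusted p = 0.060). Plin4, a perilipin of small droplets, fell from 176, 177 and 138 to 73.3, 93.5 and 90.7 (-0.93 ± 0.15, adjusted p = 9.8e-04). The list had 5 higher and 2 lower of 15 (median 0.17), and 3 and 5 on the deposited scale, median -0.15, so the sign of its median depends on the scale. Of all genes 18.0% were higher and 12.6% lower.

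Among lipolysis genes the main lipases were not called and several regulators were. Pnpla2 (adipose triglyceride lipase) and Lipe (hormone-sensitive lipase), named after their values were seen, were not called, with changes of -0.27 ± 0.14 (adjusted p = 0.16) and 0.13 ± 0.10 (adjusted p = 0.35). G0s2, an inhibitor of the first of these, rose from 48.3, 75.9 and 77.1 to 248, 257 and 158 (1.71 ± 0.25, adjusted p = 4.8e-04). The monoglyceride lipases Mgll and Abhd6 rose by 0.86 ± 0.14 and 1.20 ± 0.11.
Lpl, lipoprotein lipase, which takes fatty acids from circulating triglyceride, rose from 483, 558 and 629 to 1084, 1099 and 1008 (0.94 ± 0.15, adjusted p = 6.7e-04). Its secreted inhibitor Angptl4 fell, from 354, 309.5 and 464 to 62.7, 109 and 87.2, with no overlap (-2.13 ± 0.40, adjusted p = 0.0021). In all 9 of 16 genes of intracellular and vascular lipolysis rose and 2 fell (median 0.78, or 9 and 4 on the deposited scale, median 0.46).
Acyl-CoA synthetases trap fatty acids in the cell. Acsl5 was at 17.6, 16.8 and 17.7 and 94.5, 169.6 and 89.7 (2.67 ± 0.19, adjusted p = 3.5e-06). Acsl1, the main synthetase of fat, rose by 1.01 ± 0.15, and the mitochondrial family member Acsf2 by 1.62 ± 0.13. Of 18 uptake and binding genes 7 rose and 1 fell (median 0.35, or 5 and 3 on the deposited scale, median 0.04). Among 10 acyl-CoA thioesterases, which release free fatty acids from coenzyme A, 7 rose and 0 fell (median 0.58, or 4 and 1 on the deposited scale, median 0.27), led by the brown fat thioesterase Acot11 at 11.1, 6.34 and 11.4 and 27.7, 72.5 and 34.4 (2.08 ± 0.32, adjusted p = 5.9e-04), which shares 20.9% of its exon bases with other genes.

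Most genes of mitochondrial fatty acid oxidation rose. Slc25a20, the carnitine-acylcarnitine carrier, was at 131, 125 and 143 in WT_PBS and 418, 377 and 379 in WT_CL. Both groups were tight and about a factor of 3 apart (2.94-fold, 1.55 ± 0.09, adjusted p = 1.3e-06). Cpt2, the next step of fatty acid entry, rose by 1.52 ± 0.14, the trifunctional protein subunit Hadha by 1.26 ± 0.15, the electron acceptor Etfdh by 1.27 ± 0.12 and the carnitine acetyltransferase Crat by 1.00 ± 0.11. Of 25 genes 20 rose and 1 fell (median 0.82, or 16 and 1 on the deposited scale, median 0.49).
Most genes of peroxisomes, which shorten very long chain fatty acids, also rose. The fatty acid transporter Abcd3 rose from 47.2, 45.8 and 55.7 to 130.2, 145 and 115 (1.38 ± 0.11, adjusted p = 1.0e-05), the biogenesis factor Pex3 by 0.82 ± 0.09 and the hydrogen peroxide scavenger catalase, Cat, by 0.96 ± 0.10. Acaa1b, a peroxisomal thiolase, had the fourth largest rise of all named genes, from 2.88, 5.02 and 1.75 to 63.6, 61.6 and 48.5 (4.06 ± 0.27, adjusted p = 2.4e-06). It has a close paralog, and 11.4% of its exon bases lie in other genes, so the split of reads between the copies is uncertain. The list had 26 higher and 1 lower of 43 (median 0.60, or 20 and 6 on the deposited scale, median 0.28).

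Glucose genes rose in part. The hexokinase Hk2 rose from 29.5, 23.5 and 27.3 to 60.8, 58.0 and 54.0 (1.10 ± 0.15, adjusted p = 2.6e-04) and the glycolytic kinase Pgk1 by 0.76 ± 0.13. Glycogen genes had the 2 largest changes of the list. The glycogen synthase isoform Gys2 rose from 7.52, 4.40 and 9.69 to 26.8, 28.2 and 26.3 (1.90 ± 0.29, adjusted p = 6.2e-04) and Ppp1r3b, which directs a phosphatase to glycogen, from 36.3 ± 5.24 to 117 ± 12.5 (1.69 ± 0.24, adjusted p = 3.6e-04). The insulin-responsive transporter Slc2a4 (GLUT4) overlapped between groups, at 113, 104 and 123 and 96.4, 118 and 113 (-0.05 ± 0.12, adjusted p = 0.78). In all 18 of 38 rose and 1 fell (median 0.48, or 10 and 4 on the deposited scale, median 0.18), and 10 rose without WT_CL replicate 2.
Genes for the entry of pyruvate into the mitochondrion and its oxidation rose in nearly all cases. Mpc2, a subunit of the pyruvate carrier, rose from 178, 175 and 287 to 622, 681 and 624 (1.63 ± 0.19, adjusted p = 8.8e-05), and Dlat of pyruvate dehydrogenase by 1.08 ± 0.12. In the tricarboxylic acid cycle Dlst rose by 1.06 ± 0.09, Ogdh by 0.79 ± 0.09 and Sdha by 0.81 ± 0.10. The list had 27 of 30 genes higher and 0 lower (median 0.77, or 21 and 2 on the deposited scale, median 0.45). Pdk4, a kinase that switches pyruvate dehydrogenase off, overlapped between groups at 381, 274 and 363 and 263, 446 and 318 (-0.01 ± 0.43, adjusted p = 0.99).
Genes that break down branched-chain amino acids, another fuel of brown fat, rose too. Mccc1 of leucine catabolism was at 35.8, 35.0 and 48.7 and 110.2, 129 and 118 (1.58 ± 0.14, adjusted p = 1.7e-05). Pcca, of propionyl-CoA carboxylase, rose by 1.28 ± 0.12 and Dbt, of the branched-chain ketoacid dehydrogenase, by 1.26 ± 0.10. Of 26 genes 19 rose and 2 fell (median 0.63, or 16 and 5 on the deposited scale, median 0.31).

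Many respiratory chain genes were called higher with the agonist, and their counts depended on the scale and on single libraries, most so for complex IV and ATP synthase. In complex I, 24 of 37 genes rose and 0 fell (median 0.56, or 12 and 0 on the deposited scale, median 0.23), with Ndufs8 at 144, 142 and 215 and 337, 322 and 346 (1.03 ± 0.16, adjusted p = 5.5e-04) and Ndufa9 up by 0.94 ± 0.13. For complexes II and III and cytochrome c the count was 13 of 14 higher and 0 lower (median 0.73, or 11 and 0 on the deposited scale, median 0.41). Uqcrc2, a core subunit of complex III, rose from 422, 403 and 512 to 887, 937 and 919.7 (1.04 ± 0.12, adjusted p = 1.0e-04).
In complex IV 9 of 16 rose and 0 fell (median 0.49, or 1 and 1 on the deposited scale, median 0.17). That count fell to 0 without WT_PBS replicate 2, to 1 without WT_PBS replicate 1, WT_CL replicate 1 or WT_CL replicate 3 and to 3 without WT_CL replicate 2, and was 11 without WT_PBS replicate 3. Cox6a1 was at 874, 887 and 1442 in WT_PBS and 1557, 1615 and 1601 in WT_CL. Its WT_PBS replicate 3 lay close to the agonist libraries and the other controls well below.
Of 17 ATP synthase genes 9 rose and 1 fell (median 0.49, or 1 and 3 on the deposited scale, median 0.16), and 4 rose without WT_PBS replicate 2. Leaving out WT_PBS replicate 3 gave 34 higher genes in complex I and 13 in ATP synthase. Without WT_PBS replicate 2 complex I had 18 higher genes. With quantile normalization as another scaling, the medians were 0.36 for complex I and 0.29 for complexes II and III and cytochrome c. Those of complex IV and ATP synthase were 0.06 and 0.02. Nearly all calls for complex IV and ATP synthase were absent on the deposited scale.

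**Figure D3:**
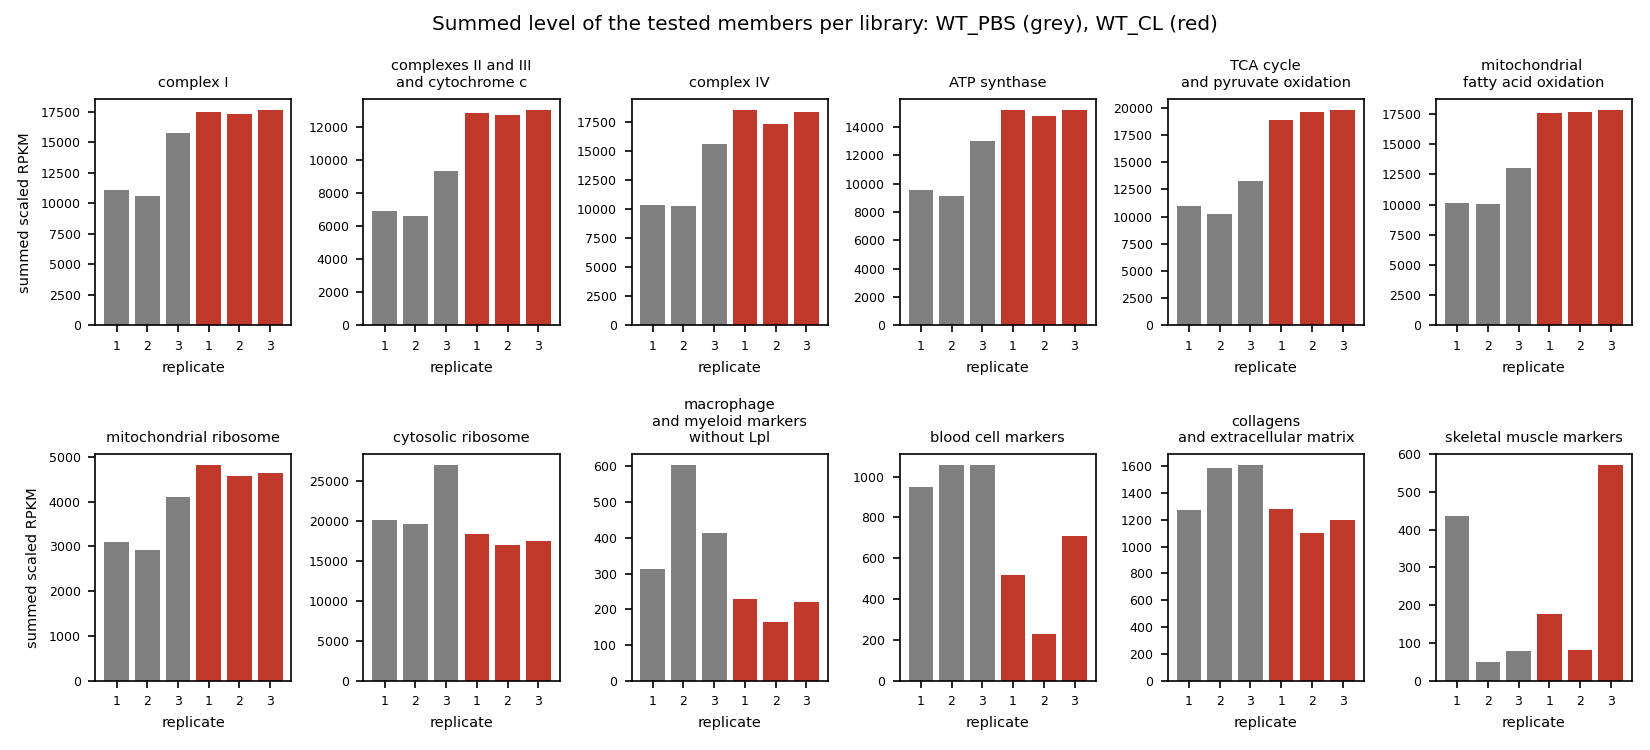
Bars give the summed scaled RPKM of the tested members of 12 gene lists (macrophage markers without Lpl) in each WT library, grey for WT_PBS and red for WT_CL with replicates 1 to 3 from left to right. Respiratory chain sums of WT_PBS replicate 3 lie between the other controls and the agonist libraries, for complex IV 10348, 10242 and 15574 against 18547, 17342 and 18408, whereas skeletal muscle sums vary within both groups.

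Genes that make and maintain mitochondria rose in part. Tfb2m, a transcription factor of mitochondrial DNA, was at 20.5, 17.9 and 17.4 and 40.6, 41.1 and 41.7 (1.13 ± 0.08, adjusted p = 3.5e-06). Gabpa, a nuclear factor for respiratory genes, rose by 0.91 ± 0.11, the mitochondrial RNA polymerase Polrmt by 0.76 ± 0.12 and Tfam, which packs mitochondrial DNA, by 0.64 ± 0.10. The biogenesis list had 11 of 24 higher and 0 lower (median 0.36, or 7 and 3 on the deposited scale, median 0.05).
Import, chaperone and protease genes rose in 28 of 36 cases with 0 that fell (median 0.63, or 17 and 0 on the deposited scale, median 0.32). Afg3l2, a protease of the inner membrane, rose by 0.79 ± 0.07 and the matrix protease Lonp1 by 0.71 ± 0.09. Of 39 genes for heme, iron-sulfur clusters and coenzyme Q, 24 rose and 2 fell (median 0.49, or 15 and 4 on the deposited scale, median 0.17). Coq6 of coenzyme Q synthesis was among the tightest of all, at 53.7, 53.3 and 59.7 and 106, 109 and 108 (0.95 ± 0.07, adjusted p = 6.2e-06).
Mitochondrial carriers had 17 higher and 1 lower of 35 (median 0.41, or 13 and 2 on the deposited scale, median 0.11). Slc25a34, an orphan carrier, rose from 0.40, 0.41 and 0.16 to 17.3, 3.44 and 6.16 (3.25 ± 0.56, adjusted p = 0.0012), or by 2.65 without WT_CL replicate 1. Slc25a51, which carries NAD into mitochondria, rose from 52.3 ± 2.18 to 108 ± 3.59 (1.05 ± 0.09, adjusted p = 1.7e-05).

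Ribosomal genes of the mitochondrion and of the cytosol went opposite ways. Of 77 mitochondrial ribosome genes 50 rose and 0 fell (median 0.44, or 21 and 5 on the deposited scale, median 0.12), and 31 rose without WT_PBS replicate 2. Mrps27 was at 19.1, 15.6 and 21.2 and 39.7, 42.3 and 40.0 (1.12 ± 0.10, adjusted p = 2.2e-05), and 24.2% of its exon bases lie in other genes. Over 76 cytosolic ribosome genes 0 rose and 34 fell (median -0.38, or 0 and 70 on the deposited scale, median -0.70).
The number of cytosolic ribosome genes that fell was 21 without WT_PBS replicate 3, 12 without WT_CL replicate 2 and 14 without WT_CL replicate 3. Many ribosomal genes have processed copies, and reads could be split among them. Proteasome genes rose in 11 and fell in 1 of 40 cases (median 0.17, but 3 and 13 on the deposited scale, median -0.15), so their direction depends on the scale. Of all genes 18.0% rose and 12.6% fell. The higher count was 6 without WT_PBS replicate 1, 7 without WT_PBS replicate 2 or WT_CL replicate 1, and 18 without WT_PBS replicate 3. The activator subunit Psme2 rose by 0.84 ± 0.16.

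Cholesterol synthesis and one-carbon metabolism changed in part. Hmgcs1, which commits acetyl units to sterols, rose from 46.9, 36.5 and 38.5 to 133, 113 and 104 (1.51 ± 0.17, adjusted p = 7.3e-05), and Nsdhl by 1.20 ± 0.13. Of 27 sterol genes 9 rose and 0 fell (median 0.22, but 4 and 3 on the deposited scale, median -0.07), and 5 rose without WT_PBS replicate 2. Phgdh, the first enzyme of serine synthesis, fell from 32.3, 36.5 and 54.2 to 10.9, 5.64 and 9.24, with no overlap (-2.20 ± 0.22, adjusted p = 3.2e-05). Pck2 and Trib3, targets of the ATF4 stress response, fell (-1.07 ± 0.13 and -1.12 ± 0.18). Asns, another such target, rose by 0.99 ± 0.15. The list of serine, one-carbon and stress response genes had 6 higher and 4 lower of 22 (median 0.18, but 2 and 8 on the deposited scale, median -0.14). The higher count was 3 without WT_PBS replicate 2 or WT_CL replicate 3 and 2 without WT_CL replicate 2.

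The largest falls were in single genes of varied function. Nnat, neuronatin (chromosome 2, 157560078 to 157562522, plus strand), an imprinted membrane protein of the endoplasmic reticulum whose promoter is printed above, was at 209, 139 and 195 in WT_PBS and 8.71, 9.83 and 6.75 in WT_CL. The agonist group lay 21.5-fold below the controls by its mean (-4.34 ± 0.17, adjusted p = 3.0e-08). Tusc3, part of the oligosaccharide transferase (chromosome 8, 39005845 to 39165114, plus strand), fell from 198, 186 and 232 to 14.5, 14.0 and 14.9, with a very small spread in WT_CL (-3.78 ± 0.11, adjusted p = 2.0e-09). Clu, the secreted chaperone clusterin, fell from 58.4, 74.6 and 65.8 to 4.31, 4.87 and 4.47 (-3.72 ± 0.10, adjusted p = 1.6e-09). Cryab, a small heat shock protein, fell from 59.9 ± 6.86 to 5.79 ± 1.76 (-3.30 ± 0.25, adjusted p = 7.1e-06), with 17% of its exon bases in other genes.
Gpx3, the glutathione peroxidase secreted into plasma, was, by its level in WT_PBS, the most abundant gene that fell at least 4-fold. It was at 1961, 2226 and 2301 in WT_PBS and 348, 488 and 284 in WT_CL, without overlap (-2.57 ± 0.20, adjusted p = 7.2e-06). The glutathione transferases Gstm1 and Gstm2, which belong to a family of similar sequences, fell (-1.01 ± 0.09 and -1.61 ± 0.13). Antioxidant genes as a group divided, with 7 higher and 8 lower of 31 (median 0.04, but 4 and 13 on the deposited scale, median -0.26). Without WT_PBS replicate 3 those counts were 13 and 5, and without WT_PBS replicate 2 or WT_CL replicate 3 they were 4 and 5. The higher count was 4 without WT_PBS replicate 1 or WT_CL replicate 1, and the lower count 5 without WT_CL replicate 2.
Some of the large falls are uncertain in identity or size. Akr1cl and Acat3 have close relatives and share 11.7% and 23.5% of their exon bases with other genes, and 2610016A17Rik is annotated as antisense while the use of strand in counting is not given. Acat3 changed by -3.17 ± 0.58, or -3.80 and -2.45 without WT_CL replicate 2 or 3.
Other rises outside the lists were Aspg, an asparaginase, from 0.835, 0.562 and 0.625 to 34.4, 59.5 and 31.3 (5.12 ± 0.26, adjusted p = 3.0e-07), and Fam131c, a gene of unknown function, from 0.0459, 0.0501 and 0 to 16.6, 8.14 and 10.5 (4.47 ± 0.21, adjusted p = 2.0e-07). Both were below 1 RPKM in all controls. Tesc, a calcium-binding protein, rose from 1.07, 1.09 and 0.755 to 14.0, 7.50 and 10.6 (2.89 ± 0.27, adjusted p = 2.1e-05).

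Genes of hormones and other secreted proteins of fat changed one by one. Lep, leptin, fell from 61.5, 62.0 and 63.4 to 22.3, 18.2 and 22.8 (-1.55 ± 0.18, adjusted p = 1.1e-04), with closely grouped values on both sides. Rarres2, chemerin, fell from 161, 163 and 365 to 49.9, 48.0 and 48.6 (-2.11 ± 0.26, adjusted p = 1.4e-04), WT_PBS replicate 3 being the highest by far, and 33.6% of its exon bases lie in other genes. Rbp4, a retinol carrier and adipokine, rose from 7.70, 10.1 and 24.0 to 100.2, 73.7 and 72.1 (2.66 ± 0.31, adjusted p = 1.0e-04). Adipoq, adiponectin, was at 812, 813 and 1326 and 791, 689 and 784 and did not pass (-0.34 ± 0.21, adjusted p = 0.24).
Across 22 white adipocyte and adipokine genes 6 rose and 6 fell (median -0.18, or 3 and 10 on the deposited scale, median -0.40). The higher count was 3 without WT_PBS replicate 1, WT_CL replicate 1 or WT_CL replicate 3 and 2 without WT_PBS replicate 2. Among 18 secreted factors of brown fat 3 rose and 6 fell (median -0.38, or 3 and 11 on the deposited scale, median -0.69). Fndc5, the precursor of irisin, rose from 0.0993, 0.0811 and 0.132 to 15.5, 4.68 and 9.64 (3.97 ± 0.41, adjusted p = 5.1e-05), and Nampt, which makes NAD precursors, rose by 0.99 ± 0.13. The angiogenic factor gene Vegfb fell (-0.57 ± 0.10).

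**Figure D4:**
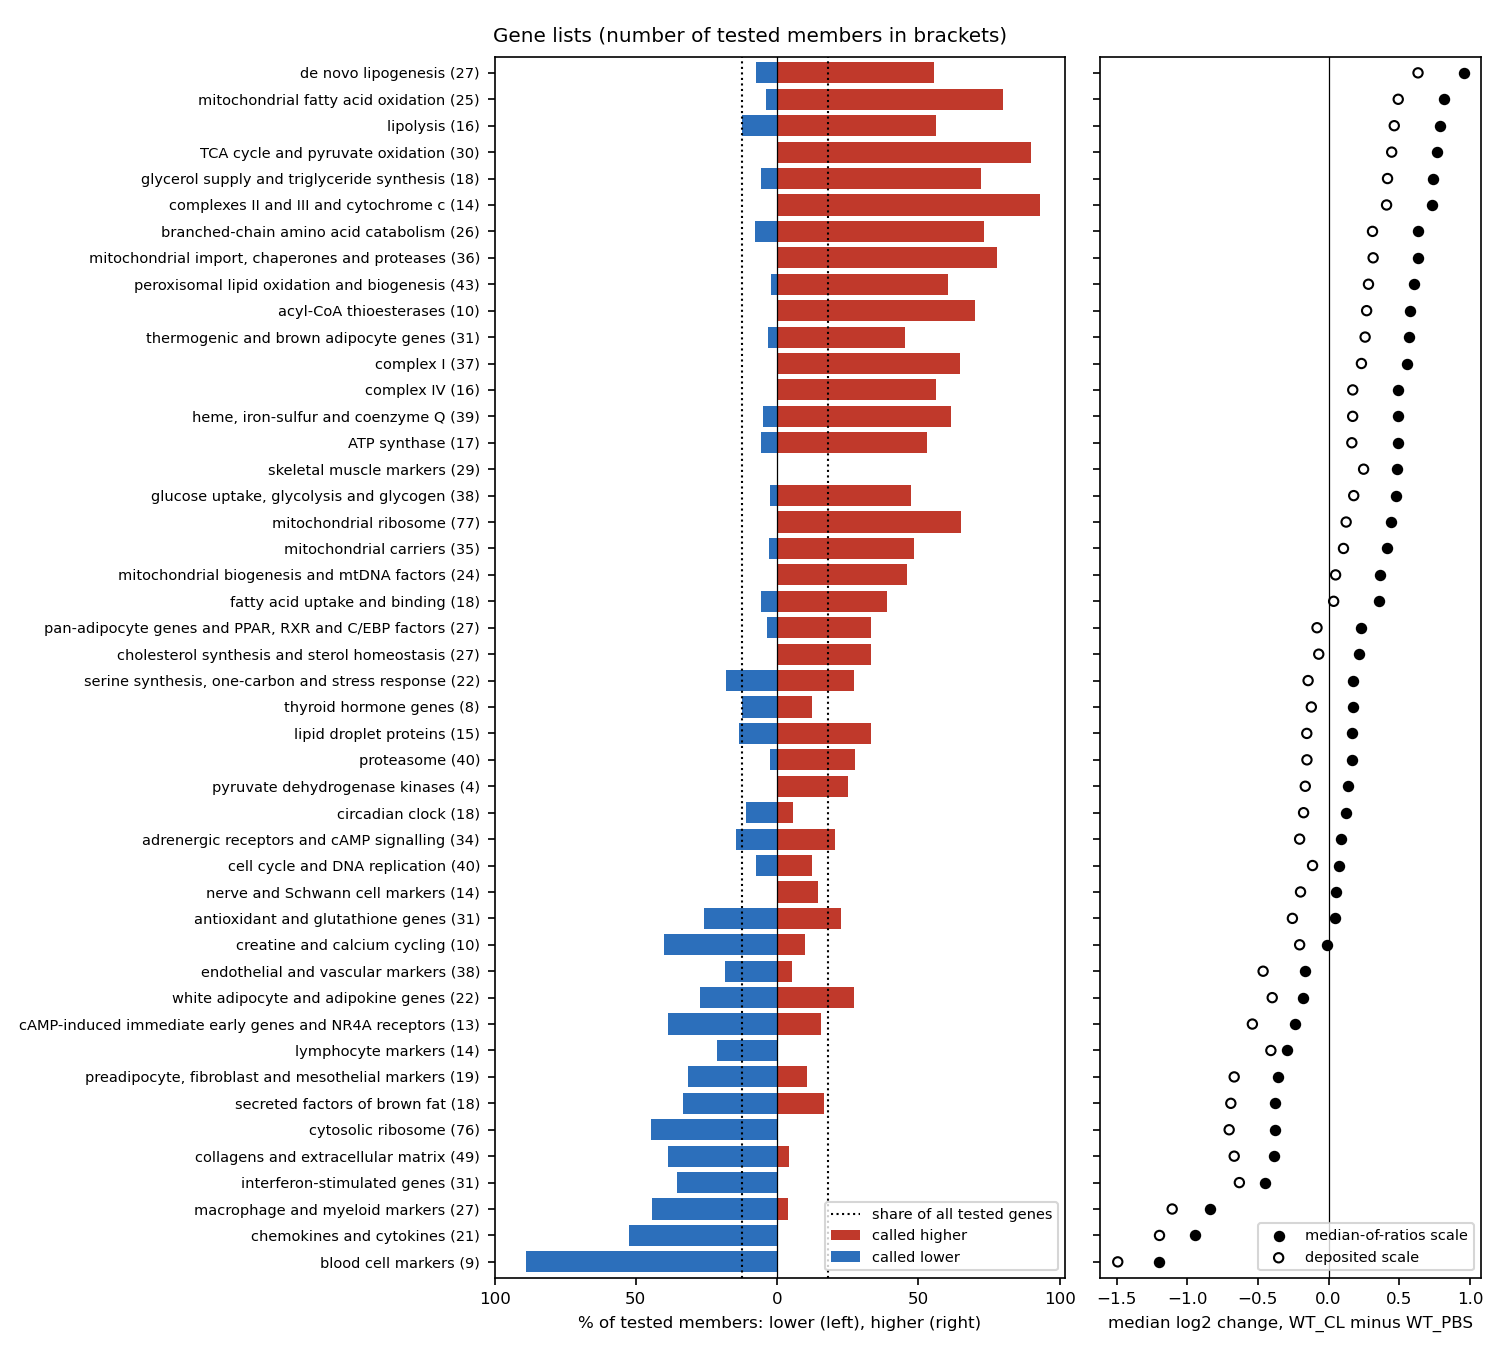
The left panel gives, for each of 46 gene lists, the share of tested members called higher (red, to the right) or lower (blue, to the left) in percent, with dotted lines at the shares of all tested genes, 18.0% and 12.6%. The right panel gives the median log2 change of each list on the scaled values (filled) and on the deposited values (open): fuel oxidation and lipogenesis lists are at the top and blood, chemokine and macrophage lists at the bottom on both scales.

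Markers of macrophages and genes of chemokines were lower with the agonist. In tissue of mixed cells, fewer cells of a type and less RNA per cell cannot be told apart. Csf1r, the growth factor receptor of macrophages, was at 8.60, 14.3 and 10.4 in WT_PBS and 4.70, 3.17 and 5.03 in WT_CL, without overlap (-1.27 ± 0.18, adjusted p = 3.2e-04). The lysozyme gene Lyz1 (-1.43 ± 0.21), the monocyte chemokine receptor Ccr2 (-1.16 ± 0.20) and the leukocyte membrane gene Laptm5 (-1.02 ± 0.17) fell too.
Of 27 macrophage and myeloid markers 1 rose and 12 fell (median -0.84, or 1 and 19 on the deposited scale, median -1.11). The 1 that rose is Lpl, which fat cells express strongly. Without Lpl the summed level of the other 26 was 312, 604 and 414 in the WT_PBS libraries and 229, 164 and 220.1 in the WT_CL libraries.
Chemokine and cytokine genes fell in 11 of 21 cases and rose in 0 (median -0.95, or 0 and 15 on the deposited scale, median -1.20). Ccl2, which draws monocytes, fell from 3.25, 2.63 and 5.47 to 0.404, 1.24 and 1.05 (-1.62 ± 0.35, adjusted p = 0.0045), and Csf1, the macrophage growth factor, from 5.73, 5.17 and 5.81 to 2.85, 2.42 and 2.67 (-0.95 ± 0.11, adjusted p = 7.8e-05). Among 31 interferon-stimulated genes 11 fell and 0 rose (median -0.45, or 0 and 24 on the deposited scale, median -0.63), with 6 without WT_CL replicate 2. WT_PBS replicate 3 was the highest control library for 27 of the 31 genes, and their summed level was 974, 1049.7 and 1664 RPKM in WT_PBS and 865, 775 and 812 in WT_CL; the part of that library in the result was not tested, and without it 8 genes fell and 1 rose. Psmb8, an immunoproteasome subunit, fell (-0.75 ± 0.16). Lymphocyte markers fell in 3 of 14, against 12.6% of all genes (median -0.29, or 0 and 3 on the deposited scale, median -0.41), and in 1 without WT_PBS replicate 1, WT_CL replicate 2 or WT_CL replicate 3.
Haemoglobin and other blood cell markers fell in 8 of 9 cases (median -1.20, or 0 and 8 on the deposited scale, median -1.49), or 5 without WT_PBS replicate 2. Their part in the lower level of leukocyte genes was not tested. Hba-a1 was at 186, 195 and 173 and 94.8, 39.9 and 121 (-1.25 ± 0.30, adjusted p = 0.0085), and its near-identical copies make the split among haemoglobin genes uncertain.

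Some matrix and stromal genes were lower. Of 49 matrix genes 19 fell and 2 rose (median -0.39, or 0 and 35 on the deposited scale, median -0.67). The number that fell was 11, 10 and 11 without WT_PBS replicate 2, WT_CL replicate 2 and WT_CL replicate 3. The proteoglycan gene Bgn fell from 35.2, 40.1 and 37.4 to 19.8, 22.7 and 22.3 (-0.78 ± 0.14, adjusted p = 0.0013), and the laminin gene Lamb2 fell too (-0.75 ± 0.11). Among preadipocyte, fibroblast and mesothelial markers 6 of 19 fell and 2 rose (median -0.36, or 1 and 9 on the deposited scale, median -0.67). Thy1, a surface marker of stromal cells, fell (-0.78 ± 0.14), and the adipogenic factor genes Ebf1 and Ebf3 moved in opposite directions (-0.77 ± 0.13 and 0.69 ± 0.11).
Endothelial and vascular markers fell in 7 and rose in 2 of 38 cases (median -0.17, or 0 and 19 on the deposited scale, median -0.46), against 12.6% and 18.0% of all genes. Those called higher numbered 1 without WT_PBS replicate 3 or WT_CL replicate 2 and 0 without any one of the other 4 WT libraries. Their lower count was 12 without WT_PBS replicate 3, 4 without WT_PBS replicate 2 or WT_CL replicate 2 and 2 without WT_CL replicate 3. Plvap, of fenestrated capillaries, fell (-0.77 ± 0.15).
Cell cycle genes gave no common direction, with 5 higher and 3 lower of 40 (median 0.07, but 1 and 8 on the deposited scale, median -0.11), against 18.0% and 12.6% of all genes. The higher count was 2 without WT_PBS replicate 1 or WT_CL replicate 3 and 3 without WT_CL replicate 1, and the lower count was 1 without WT_PBS replicate 3, WT_CL replicate 2 or WT_CL replicate 3. The proliferation marker Mki67 was at 1.13, 1.18 and 1.71 and 2.33, 1.48 and 1.18 and overlapped (0.21 ± 0.22, adjusted p = 0.5). The replication factor Cdc45 rose from 1.97, 2.29 and 2.19 to 4.06, 4.42 and 4.33 (0.85 ± 0.14, adjusted p = 0.001). Nerve and Schwann cell markers rose in 2 and fell in 0 of 14 cases (median 0.05, but 1 and 3 on the deposited scale, median -0.20), and Th, tyrosine hydroxylase of sympathetic nerves, was at 0 in all 6 WT libraries. Among all genes 18.0% were higher and 12.6% lower, and the count of nerve markers called higher was 0 without WT_PBS replicate 1 and 1 without WT_PBS replicate 2, WT_CL replicate 1 or WT_CL replicate 3.
Circadian genes were called in 1 higher and 2 lower of 18 cases (median 0.13, but 0 and 3 on the deposited scale, median -0.18), against 18.0% and 12.6% of all genes. Circadian genes called higher numbered 0 without WT_PBS replicate 1, WT_PBS replicate 3 or WT_CL replicate 2 and 2 without WT_PBS replicate 2 or WT_CL replicate 1. The lower count was 3 without WT_CL replicate 2 and 1 without WT_PBS replicate 1, WT_PBS replicate 2, WT_CL replicate 1 or WT_CL replicate 3. Nr1d1, which encodes the repressor REV-ERBα, fell from 61.4, 67.9 and 49.2 to 33.0, 39.7 and 36.3 (-0.70 ± 0.16, adjusted p = 0.0066). Creatine and calcium cycling genes, the parts of heat production that need no UCP1, fell in 4 and rose in 1 of 10 cases (median -0.01, or 0 and 5 on the deposited scale, median -0.20). The creatine transporter Slc6a8 fell from 14.6, 19.5 and 12.1 to 4.78, 6.52 and 6.65 (-1.28 ± 0.19, adjusted p = 5.0e-04) and the creatine kinase Ckb from 48.6, 51.6 and 41.1 to 31.3, 23.8 and 24.4 (-0.82 ± 0.16, adjusted p = 0.0023), whereas the calcium pump Atp2a2 rose by 0.64 ± 0.12, not on the deposited scale (adjusted p = 0.054).
Among 27 pan-adipocyte genes and their nuclear factors, 9 rose and 1 fell (median 0.23, but 5 and 7 on the deposited scale, median -0.08). The adipogenic factor Cebpb rose from 36.8, 30.7 and 54.5 to 109.6, 96.1 and 87.3 (1.29 ± 0.22, adjusted p = 0.001). Thyroid hormone genes were called in 1 higher and 1 lower of 8 cases (median 0.17, but 0 and 3 on the deposited scale, median -0.12), and the pyruvate dehydrogenase kinases in 1 higher and 0 lower of 4 (median 0.14, but 0 and 0 on the deposited scale, median -0.16), against 18.0% and 12.6% of all genes. The thyroid count called higher was 2 without WT_PBS replicate 1 and 0 without WT_PBS replicate 2 or WT_CL replicate 1, and the kinase count was 0 without WT_PBS replicate 1, WT_PBS replicate 2, WT_CL replicate 2 or WT_CL replicate 3. In each of the other gene lists, a count of 1 or 2 genes in 1 direction stayed between 0 and 3 when 1 WT library was left out.

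Whether a response differs when ERRα and ERRγ are deleted in adipocytes was tested as an interaction, the WT change minus the ERRKO change. It was called for 478 of 12249 genes (3.90%), of which 234 rose and 196 fell in WT. That count was 243 without WT_PBS replicate 2, 826 without WT_PBS replicate 3, 292, 285 and 224 without WT_CL replicates 1, 2 and 3, 248 without ERRKO_PBS replicate 1, and 281, 239 and 290 without ERRKO_CL replicates 1, 2 and 3. The response of ERRKO alone had 1261 called genes. In the same direction as in WT, 572 of the 2199 higher and 246 of the 1538 lower genes were called there, and 18 were called in the opposite direction.
The rise of Ucp1 on the log2 scale was not shown to differ, at 2.41 ± 0.31 in WT and 2.86 ± 0.31 in ERRKO (interaction -0.45 ± 0.43, adjusted p = 0.65). Its level was far lower in ERRKO, at 3.26, 3.95 and 6.37 in ERRKO_PBS and 27.8, 27.6 and 54.4 in ERRKO_CL. Even with the agonist, these values lay below the 484, 315 and 538 of WT_PBS. Dio2, Gys2, Slc25a20 and Slc25a34 also had interactions far from the threshold, with changes of 2.04, 1.90, 1.55 and 3.25 in WT and 2.08 ± 0.36, 1.80 ± 0.29, 1.60 ± 0.09 and 3.26 ± 0.56 in ERRKO. Dio2 was low there, at 0.300, 0.217 and 0.220 in ERRKO_PBS and 3.28, 1.43 and 3.74 in ERRKO_CL. At such levels the added 0.5 understates the change, so its 2 log2 changes are not directly comparable. An interaction that misses the threshold does not show that the responses are alike.
Several of the genes that changed most in WT did differ. Fam131c was at 0, 0 and 0.0605 in the ERRKO_PBS libraries and 0.0337, 0 and 0 in the ERRKO_CL libraries, so that it stayed near 0 with the agonist (-0.02 ± 0.21, interaction 4.49 ± 0.29, adjusted p = 1.0e-05). Elovl6 was at 16.0, 10.7 and 6.39 and 7.85, 9.15 and 14.9 in ERRKO, and the groups overlapped (-0.01 ± 0.34, interaction 2.46 ± 0.48, adjusted p = 0.018). Acsl5, at 16.3, 15.5 and 14.3 and 13.9, 16.5 and 15.3, overlapped as well (-0.01 ± 0.19, interaction 2.68 ± 0.27, adjusted p = 4.9e-04).
Elovl3 and Aspg rose in both genotypes, by less in ERRKO on this scale. Elovl3 went from 0.0475, 0.0516 and 0.0470 to 2.57, 2.02 and 1.65 in ERRKO (2.22 ± 0.27, interaction 3.31 ± 0.39, adjusted p = 9.0e-04) and Aspg from 0.311, 0.248 and 0.307 to 1.26, 2.90 and 1.44 (1.52 ± 0.26, interaction 3.59 ± 0.37, adjusted p = 5.0e-04).
Among the falls, Nnat was at 809, 794 and 931 in ERRKO_PBS and 546, 539 and 631 in ERRKO_CL (-0.56 ± 0.17, interaction -3.78 ± 0.23, adjusted p = 8.2e-06). Tusc3 was at 10.3, 11.0 and 8.77 and 12.0, 10.1 and 12.2 (0.18 ± 0.11, interaction -3.95 ± 0.16, adjusted p = 1.3e-07). In all 6 ERRKO libraries Nnat was above its WT_PBS values, and Tusc3 was below even its WT_CL values, with or without the agonist. Nr4a1 was at 2.13, 0.998 and 2.14 and 3.46, 1.64 and 1.15 (0.14 ± 0.31, interaction -2.78 ± 0.44, adjusted p = 0.0063), low in both groups and far below its WT_PBS values. Gnas was at 77.9, 86.1 and 81.7 and 98.8, 90.9 and 91.7 (0.19 ± 0.14, interaction 1.29 ± 0.20, adjusted p = 0.0059).
By lists, ERRKO had 13 higher and 0 lower thermogenic genes (median 0.65) beside 14 and 1 in WT. For lipogenesis the ERRKO counts were 3 and 1 (median 0.02) beside 15 and 2, and for mitochondrial fatty acid oxidation 21 and 0 (median 0.71) beside 20 and 1. For the TCA cycle they were 15 and 0 (median 0.42) beside 27 and 0, for the mitochondrial ribosome 8 and 0 (median 0.22) beside 50 and 0, and for macrophage markers 2 and 4 (median -0.49) beside 1 and 12. For interferon-stimulated genes they were 0 and 28 (median -0.94) beside 0 and 11 (median -0.45). Over all 12249 genes ERRKO had 1261 called and WT 3737, so a lower count in ERRKO is not particular to a list. These list differences were not tested.

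**Figure D5:**
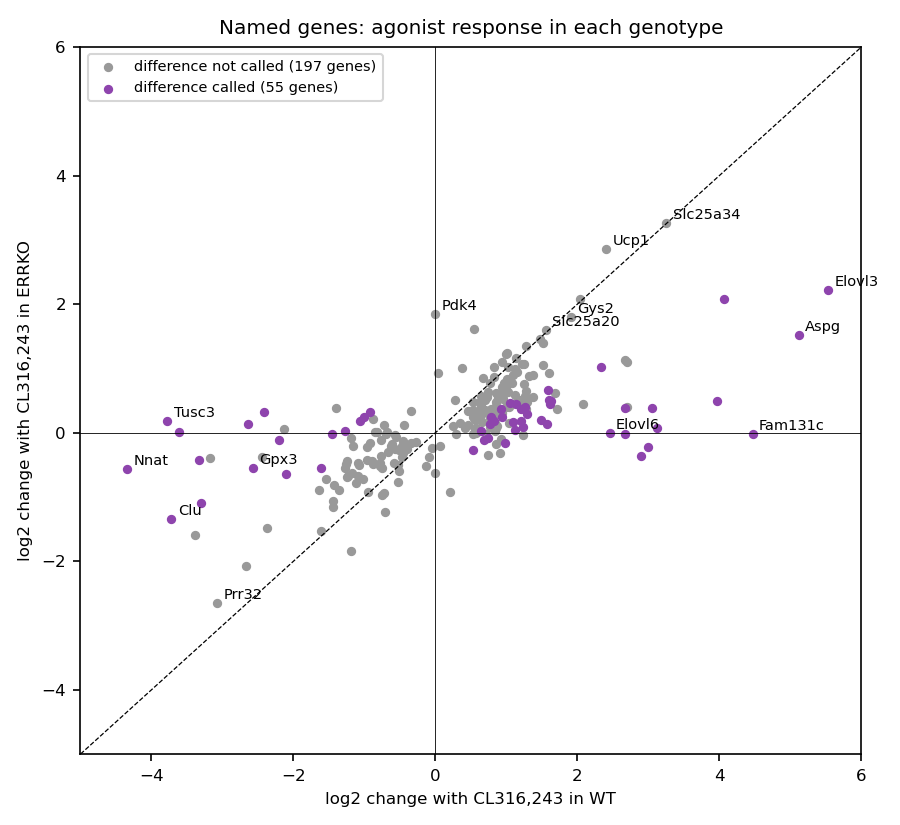
Each point is 1 of 252 named genes, with its log2 change with CL316,243 in WT on the horizontal axis and in ERRKO on the vertical axis, in purple where the interaction was called (55 genes) and grey where not (197 genes), and a dashed line of equal change. Ucp1 and Slc25a34 lie near the line, and Fam131c, Elovl6 and Tusc3 lie near an ERRKO change of 0.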

How the data were processed

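Total RNA of brown fat was sequenced in 12 libraries. The authors deposited a table of RPKM for 24452 genes in each library, per the file headers, and a second table whose values are a linear normalized signal, per the file headers. Tools named in the submitters' processing notes are STAR 2.3.0, edgeR, cutadapt and bcl2fastq 2.16.0.10, and the builds named are mm9 and mm10, without their roles. For the counting tool, its annotation and its strand setting the labels give nothing (not given in the sources used here).

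Deposited RPKM were divided by a median-of-ratios factor per library, computed over 12126 tested genes above 0 in all 12 libraries. Genes with a mean deposited RPKM of at least 0.5 were tested (12249, or 50.1%), 271 of them with a mean from 0.5 to 0.6, while 331 lay from 0.4 to 0.5 below it. log2(scaled RPKM + 0.5) was fitted with limma 3.58.1 (R 4.3.3, trended empirical Bayes) as 4 group means over all 12 libraries, and calls were made at a Benjamini-Hochberg adjusted p under 0.05 over all tested genes. Fold changes on this scale understate the change of low genes. Each value of the second table was a whole multiple of 1 read's worth in its library (100% of values within 0.01). The recovered read counts, 8478310 to 13263567 per library over 12380 genes, each with at least 40 reads in some library, were tested with edgeR 4.0.16 and DESeq2 1.42.0 as alternatives. The code was tested on simulated data. No 2 libraries held identical values (0 pairs), and 9 stray cells outside the table were not used.

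Named are the 15 largest rises and falls among called genes with a mean scaled RPKM of at least 1 in WT and no overlap, the 5 members of smallest p in each of 46 lists and 25 genes always named; of these 252 tested genes the text describes those that carry each group. Other genes are marked. The lists (1271 genes) and named genes were chosen with earlier results of these data known. Coordinates are from GENCODE vM21 (GRCm38), used with gene symbols because the build behind the RPKM is not settled. Alternatives were other scalings, pseudocounts, filters, tests, a replicate block and leaving out each library.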

Additional observations from a re-analysis of the deposited data

Results flagged for a closer look

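For the following genes the agonist response of WT minus that of ERRKO, in log2 units, differed from 0 by the limma interaction contrast (Benjamini-Hochberg adjusted p under 0.05, called for 3.90% of all tested genes). The difference was positive, the WT change being the higher, for 28 described genes: 4.49 for Fam131c, 3.59 for Aspg, 3.47 for Fndc5, 3.31 for Elovl3, 3.26 for Tesc, 2.68 for Acsl5, 2.46 for Elovl6, 2.28 for Ppp1r1a, 1.99 for Acaa1b, 1.43 for Pgd, 1.31 for Gk, 1.29 for Gnas, 1.17 for Acsf2, 1.15 for Nampt, 1.13 for Mpc2, 1.09 for Letmd1, 1.08 for Mrps27, 1.03 for Nsdhl, 1.01 for Gpd1, 0.93 for Hk2, 0.92 for Mccc1, 0.87 for Dbt, 0.84 for Abhd6, 0.81 for Ebf3, 0.69 for Tfb2m, 0.61 for Tfam, 0.60 for Dlst, 0.54 for Afg3l2. It was negative for 16: -3.95 for Tusc3, -3.78 for Nnat, -3.62 for Akr1cl, -2.91 for Gadd45b, -2.78 for Nr4a1, -2.74 for 2610016A17Rik, -2.38 for Clu, -2.20 for Cryab, -2.09 for Phgdh, -2.02 for Gpx3, -1.47 for Rarres2, -1.44 for Jun, -1.30 for Slc6a8, -1.25 for Pck2, -1.24 for Gstm1, -1.06 for Gstm2. Akr1cl was near 0 in ERRKO, at 0.0326, 0.0353 and 0 in ERRKO_PBS and 0, 0.0380 and 0.0377 in ERRKO_CL. It had no room to fall there. Clu was at 13.7, 14.4 and 16.5 in ERRKO_PBS, below its WT_PBS values given above, and at 5.41, 5.58 and 5.68 in ERRKO_CL. The part of the level without agonist in these differences was not tested. Groups of 3 libraries are too small for a test of single outlying samples. The deletion is in adipocytes and the ERRKO libraries held more recovered reads (12468001 to 13263567) than the WT libraries (8478310 to 9727167), and the part of depth in these differences was not tested.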

How the results depend on the processing

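Counts of called genes kept within 1.5 times of 3737 under every alternative run, from 2738 without WT_PBS replicate 2 to 5553 on the deposited RPKM. Their split moved with the scale: 882 higher and 4671 lower genes on the deposited RPKM, by construction, since the typical gene is then lower, against 1902 and 1806 after quantile normalization. Leaving out 1 library gave 2738 to 3891 called genes, 1641 to 2348 higher and 1097 to 1543 lower. The count of genes with a called difference between genotypes was the least stable, with 1153 when limma weighted libraries and 823 with DESeq2, and 224 to 826 when 1 library was left out; the cause was not tested. edgeR on recovered reads called 3633 genes with TMM and 3624 with median-of-ratios factors, and 412 and 376 differences between genotypes. Of 3673 called genes present in the reads, 2058 higher and 1419 lower genes were also called by edgeR with TMM in that direction. In all, 2238 genes were called in every fit that left out 1 WT library. The 143 described genes kept their direction wherever called, and 133 to 143 of them kept their side of the threshold in each alternative. Calls lost in some alternatives were those of Fads2, Cox6a1 and Zic1 and, on the deposited RPKM alone, Atp2a2, Nr1h3, Pde8a and Plin5. Adrb3, Cidea, Cox7a1 and Ppargc1a passed as higher in some alternatives, and Adipoq, Mlxipl, Pnpla2 and Slc2a4 as lower on the deposited RPKM (Adipoq and Pnpla2 also after quantile normalization). With the replicate number as a block, 3522 genes were called (2081 higher, 1441 lower) and 371 differences between genotypes. Deviations of same-numbered WT_PBS and WT_CL libraries from their group means correlated at -0.044, 0.17 and -0.21 over genes. Those of differently numbered libraries ranged from -0.29 to 0.38. Deviations from a mean of 3 libraries depend on each other, so these values cannot decide whether the numbers pair the libraries. With 3 libraries a group, the median standard error of a change was 0.136 on the log2 scale.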

Other observations

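Among the 6 WT libraries the first principal component of all tested genes held 59.4% of the variance and separated the groups, and the second held 17.1%. Within WT_PBS, the third library was the highest for 75 of 77 mitochondrial ribosome genes, besides the groups given above, while the first and second were the highest of their group for 30.5% and 27.6% of all tested genes.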
